A study of Homo sapiens with 2 samples.

Results

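The GATA factor genes GATA2, GATA3, GATA4, GATA5 and GATA6 were examined in the open chromatin of CAMA-1 cells, with GATA3 set against its 4 paralogs. Each locus was taken as the GENCODE gene body on hg38 plus 100 kb either side, and every peak of either replicate that overlapped it was kept. This gave 219 of 245736 peaks in replicate 1 and 240 of 259745 peaks in replicate 2. After peaks of the replicates that overlapped by at least 1 bp had been merged, 189 of 215195 regions open in both replicates lay at these 5 loci. A peak or region was counted at a transcription start site (TSS) when it came within 1 kb of any annotated TSS.

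CAMA-1 is an established breast cancer cell line, labelled epithelial and mammary gland by the submitters. Untreated cells growing in adherent culture were profiled by ATAC-seq, in which the transposase Tn5 cuts and tags accessible DNA. There were 2 biological replicates of 50000 cells each, no second condition and no control, so the comparisons below are between loci of the same cells. With 2 paired values, the smallest p that a two-sided exact sign-flip permutation test could give was 0.5, so no such test was run and differences are set beside the spread between replicates.

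GATA factors are zinc finger proteins that bind DNA at the core letters GATA and switch on lineage genes. GATA3 is a defining regulator of luminal breast epithelium and of T cells, whereas GATA2 is best known in blood stem cells and endothelium, and GATA4, GATA5 and GATA6 in heart, gut and other organs of the endoderm and mesoderm. Open chromatin at a promoter or enhancer marks DNA that factors can reach, but it is not a measure of transcription.

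The epithelial label was checked first. All 5 epithelial markers had a TSS peak in both replicates, as did 79.6% of all protein-coding genes, so the count alone says little. Their fold enrichments were 85.1 to 140.1 in replicate 1 and 81.6 to 147 in replicate 2, highest in both at KRT8, a keratin of simple epithelia. Of 7 markers of other cell types reported here, 3 had one. PTPRC, CD3E and SPI1 of blood and PECAM1 of endothelium had none, whereas CDH5 of endothelium and the collagen genes COL1A1 and COL1A2 of fibroblasts had TSS peaks in both, at 17.5 to 73.4 in replicate 1. The part of other cells in the results was not tested. Fold enrichment is the peak caller's ratio of reads over a peak to a background that was the same for every peak of a replicate, at 3.35 reads in replicate 1 and 3.52 in replicate 2. The median over all peaks was 8.28 and 7.96. The peak lists hold neither library totals nor the DNA copy number of a locus, and more copies of a locus and more accessible chromatin cannot be told apart in these values.

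The first comparison asked which GATA promoters were open. GATA2, GATA3 and GATA6 had a TSS peak in both replicates, and GATA4 and GATA5 had none in either. Having 3 of 5 members with a TSS peak compares with 79.6% of the 19970 protein-coding genes on chromosomes 1 to 22 and X (15890 genes), and a count over 5 genes is too small to be read against that share. With a distance of 3 kb in place of 1 kb, all 5 were counted.

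GATA3 (ENSG00000107485.18, chr10:8045378-8075198, plus strand) is annotated with 5 TSSs. Its strongest TSS region spanned 1620 bp (chr10:8053316-8054935) and covered the TSSs at positions 8053604, 8054688 and 8054810. The fold enrichment there was 48.3 in replicate 1 and 50.0 in replicate 2, a mean of 49.1 ± 1.17 (SD, n = 2). These values were peak heights of 209 reads (95% exact Poisson interval 182 to 239) and 225 reads (197 to 256). Such intervals cover counting error only. The replicates differed by less than this error. The region was shared with the start of GATA3-AS1, the antisense RNA transcribed away from GATA3, and ATAC-seq does not separate the strands. By contrast, the most 5′ TSS of GATA3, at position 8045378, had a weak region (chr10:8044951-8045386) with fold enrichments of 5.29 and 4.86. The remaining TSS, at 8058399, lay between a region at 4.37 and 4.86 and a region at 5.06 and 5.31. Thus the strong opening was not at the 5′ end of the annotated gene, and its midpoint lay 8747 bp inside.

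Promoter sequence is shown for the strong and for the weak GATA3 start, because the same gene held both. Each is the DNA just before a RefSeq TSS on hg38, cut short where a GENCODE transcript had already begun, printed 5′ to 3′ along the gene with CpG dinucleotides in capitals. The first is chr10:8053391-8053603 and the second chr10:8045083-8045332.
GATA3 strong start: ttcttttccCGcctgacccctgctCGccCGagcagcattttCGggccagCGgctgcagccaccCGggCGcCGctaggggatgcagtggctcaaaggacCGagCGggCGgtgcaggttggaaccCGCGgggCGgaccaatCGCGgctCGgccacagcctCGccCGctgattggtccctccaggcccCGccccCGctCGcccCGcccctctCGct
GATA3 weak start: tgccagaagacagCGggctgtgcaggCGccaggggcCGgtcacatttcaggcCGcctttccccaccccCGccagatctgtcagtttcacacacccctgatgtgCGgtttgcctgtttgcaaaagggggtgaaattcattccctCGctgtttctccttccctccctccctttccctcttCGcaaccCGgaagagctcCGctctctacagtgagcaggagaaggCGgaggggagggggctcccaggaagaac
The strong start held 24 CpG in 213 bases and the weak start 11 in 250 bases, with 72.8% and 60.8% GC. Over the full RefSeq promoter windows of 300 bases, the strong start had 36 CpG and the weak start 16, against a median of 14 over 35116 RefSeq promoters.

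GATA2 (ENSG00000179348.13, chr3:128479427-128493201, minus strand) has 10 annotated TSSs. Its strongest TSS region spanned 2355 bp (chr3:128486634-128488988) and covered the TSSs at 128488530 and 128487916, inside the gene. The fold enrichment was 70.4 and 64.8 (mean 67.6 ± 3.97, n = 2), from heights of 305 and 292 reads. The start of GATA2-AS1 lay in the same region. None of the 3 most 5′ TSSs, at 128493173 to 128493201, was covered. The only region within 1 kb of them had fold enrichments of 7.59 and 7.96. GATA2 is known to use alternative first exons, the most distal of them mainly in blood cells. Here, as at GATA3, the strong opening was at an internal start.

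The open and the uncovered GATA2 starts are shown in the same way, as chr3:128488531-128488780 and chr3:128493202-128493451 on the minus strand.
GATA2 open start: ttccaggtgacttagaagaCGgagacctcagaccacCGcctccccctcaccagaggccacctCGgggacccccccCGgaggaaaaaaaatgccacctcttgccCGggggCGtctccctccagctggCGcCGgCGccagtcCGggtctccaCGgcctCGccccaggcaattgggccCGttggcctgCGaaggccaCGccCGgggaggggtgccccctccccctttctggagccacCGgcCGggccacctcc
GATA2 uncovered start: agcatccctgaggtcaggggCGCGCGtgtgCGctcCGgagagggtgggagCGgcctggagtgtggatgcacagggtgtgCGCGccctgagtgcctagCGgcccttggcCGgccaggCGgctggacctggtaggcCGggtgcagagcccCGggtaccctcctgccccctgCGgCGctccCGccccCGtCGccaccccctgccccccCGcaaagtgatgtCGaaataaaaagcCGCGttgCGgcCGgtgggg
Both are CpG-rich. The open start held 18 CpG in 250 bases and the uncovered start 24, so in this pair the start without a covering peak had more CpG than the covered one, in the opposite order to the GATA3 pair.

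GATA6 (ENSG00000141448.11, chr18:22169589-22202528, plus strand) was the only open member whose most 5′ TSS lay under the strong region. That region was the widest of these TSS regions at 2701 bp (chr18:22168328-22171028), and it covered both annotated TSSs and the start of GATA6-AS1. Its fold enrichment was 64.9 and 61.0 (mean 63.0 ± 2.73, n = 2), from heights of 281 and 275 reads. Replicate 1 split it into 3 peaks and replicate 2 called 1. At the second TSS, at 22170933, the covering peak of replicate 1 reached only 10.4. The DNA before the first TSS, chr18:22169339-22169588, is given for comparison with GATA3 and GATA2.
GATA6 open start: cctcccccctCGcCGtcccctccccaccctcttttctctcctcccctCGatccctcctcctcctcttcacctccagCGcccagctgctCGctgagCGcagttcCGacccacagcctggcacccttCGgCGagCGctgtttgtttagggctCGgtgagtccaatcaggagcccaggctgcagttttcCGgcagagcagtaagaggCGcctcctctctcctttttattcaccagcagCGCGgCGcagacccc
It held 16 CpG in 250 bases and 64.4% GC. In the 9 RefSeq promoter windows of 300 bases of GATA2, GATA3 and GATA6 there was no match to the GATA motif, searched on both strands as AGATAA, as AGATAG and as both of these with T for the leading A. Of all RefSeq promoters 25.0% held 1. The RefSeq table used here has no entry for GATA4 and GATA5.

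Set against each other, the open promoters fell in the order GATA2, GATA6, GATA3 in both replicates. GATA2 was higher than GATA6 within each replicate, at 70.4 against 64.9 and at 64.8 against 61.0. Across replicates their values overlapped, and n = 2 cannot decide whether these neighbours differ. GATA3, at 48.3 and 50.0, lay below both without overlap. The ratio of GATA3 to GATA2 was 0.686 in replicate 1 and 0.771 in replicate 2 (mean 0.729 ± 0.0601). The exact conditional binomial intervals of the height ratio were 0.572 to 0.82 and 0.645 to 0.92. The ratio of GATA3 to GATA6 was 0.745 and 0.819 (mean 0.782 ± 0.0524), with intervals of 0.619 to 0.893 and 0.683 to 0.979, all below 1. Among all genes with a TSS peak, GATA3 stood at percentiles 47.5 and 47.7, next to a median of 51.1 and 52.6 in the respective replicates. GATA2 stood at 67.4 and 61.2 and GATA6 at 63.0 and 58.2. The median fold enrichment of peaks near TSSs on the same chromosome arm was 16.6 and 16.6 for GATA2, 17.1 and 14.8 for GATA3, and 16.8 and 17.0 for GATA6. Within 5 Mb of the gene it was lower at GATA3 than at the others with an open promoter, with 14.3 and 12.3, against 15.3 and 14.0 at GATA2 and 16.1 and 17.2 at GATA6. Divided by this local level, a scaling added after the data had been seen, the promoter values were 3.39 and 4.07 for GATA3, 4.60 and 4.61 for GATA2, and 4.03 and 3.54 for GATA6. GATA3 then stayed below GATA2 in both replicates but was above GATA6 in replicate 2. The part of the local level in the order was not tested.

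**Figure D1:**
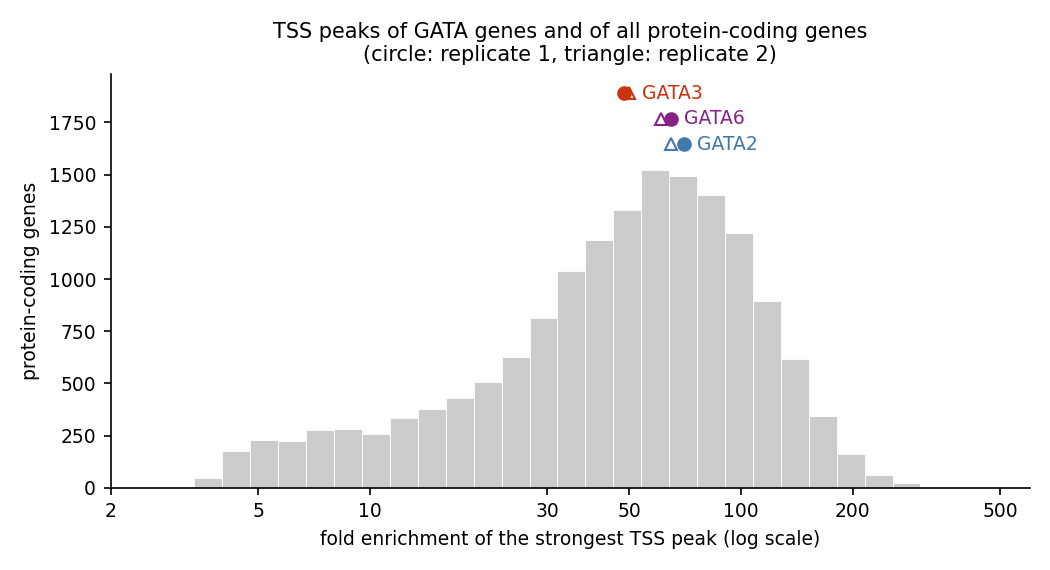
Strongest TSS peak of GATA2, GATA3 and GATA6 in replicate 1 (circles) and replicate 2 (triangles), over a histogram of the mean fold enrichment of the strongest TSS peak of 15890 protein-coding genes with one in both replicates; the horizontal axis is logarithmic and the height of the markers has no meaning. GATA3 sits at 48.3 and 50.0, left of both paralogs and near the middle of all genes.

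GATA5 (ENSG00000130700.7, chr20:62463497-62475995, minus strand) has a single annotated TSS, and it lay in neither replicate under or within 1 kb of a peak. The nearest region was in an intron of the gene, 1051 bp from the TSS in replicate 1 and 1080 bp in replicate 2, and was weak at 4.83 and 5.09 (chr20:62474721-62474944). Thus GATA5 missed the 1 kb limit narrowly. A stronger region upstream (chr20:62478162-62478864), at 31.3 and 30.7, was at the start of the non-coding gene ENSG00000272050.

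GATA4 (ENSG00000136574.19, chr8:11676959-11760002, plus strand) missed the limit narrowly at its last TSS alone, and its other TSSs were much farther from a peak. Of its 8 TSSs, the first, at 11676959, had no peak within 17935 bp in replicate 1 or 25091 bp in replicate 2. The group of 4 TSSs between 11704151 and 11704222 had none within 9039 bp in either replicate. The TSS closest to a peak was the last, at 11756493, where a region at 12.0 and 10.4 (chr8:11755090-11755350) came within 1143 bp in replicate 2 and 1152 bp in replicate 1. For both genes the lists say only that no peak passed the caller's threshold. The lowest fold enrichment of any peak was 2.76 and 2.65, and weaker opening was not detectable in them.

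Next, the surroundings of each gene were compared. The GATA3 window of 229821 bp held 42 peaks in replicate 1, 44 in replicate 2 and 35 regions in both, or 15.2 regions per 100 kb. GATA5 was densest with 75 and 84 peaks and 64 regions (30.1 per 100 kb), followed by GATA2 with 46 and 54 peaks and 42 regions (19.6 per 100 kb). GATA6 had 30 peaks in each replicate and 25 regions (10.7 per 100 kb), and GATA4 had 26 and 28 peaks and 23 regions (8.13 per 100 kb). In each replicate alone the order GATA5, GATA2, GATA3, GATA6, GATA4 was the same. Over protein-coding genes the median was 11.30 regions per 100 kb. GATA3 stood at percentile 64.9, GATA2 at 78.1, GATA5 at 95.3, GATA6 at 47.2 and GATA4 at 35.4. The order depended on the width of the window. Within 50 kb of the gene, GATA3 had 22.3 regions per 100 kb, above GATA2 at 16.7 and below GATA5 at 25.8. Within 200 kb it was 10.5, below GATA6 at 11.1.

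An open window did not go with an open promoter at GATA5. The gene, with no TSS peak, lay in the most open window, where 14 of 64 regions were at TSSs of other genes. The highest TSS peaks among these were at RBBP8NL with 98.2 and 113, and at LAMA5, a laminin chain of epithelial basement membranes, with 98.9 and 103. At the CABLES2 start the peaks had 84.2 and 80.3. The merged region there reached 101 and 106, but in peaks more than 1 kb from that start. RPS21, a ribosomal protein, had 73.9 and 76.1. In the GATA4 window 9 of 23 regions were at TSSs of other genes, led by FDFT1, the squalene synthase of cholesterol synthesis, with 74.1 and 80.7 and CTSB, the lysosomal protease cathepsin B, with 65.8 and 64.6. NEIL2, a DNA repair glycosylase, had 20.9 and 29.2. In contrast, only 1 of 35 regions of the GATA3 window was at the TSS of another gene alone, the non-coding ENSG00000232638 inside the GATA3 gene. GATA2 had 2 of 42 and GATA6 3 of 25 such regions. Without them, GATA3 had 14.8 regions per 100 kb and GATA5 23.5.

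**Figure D2:**
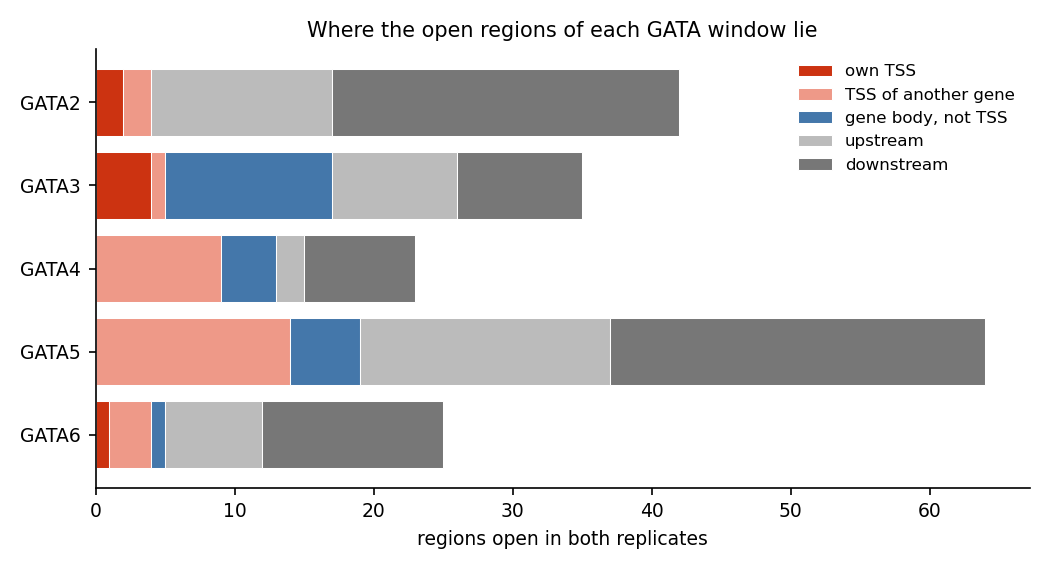
Number of regions open in both replicates (horizontal axis) in the window of each GATA gene, split into those within 1 kb of a TSS of the gene itself, within 1 kb of a TSS of another gene only, elsewhere in the gene body, upstream and downstream. GATA3 has 12 regions in the gene body away from TSSs, and GATA2 has 0, GATA4 4, GATA5 5 and GATA6 1.

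The gene body of GATA3 held more open regions than that of any paralog. Of the 35 regions of its window, 17 overlapped the gene itself, which is 29821 bp long, a density of 5.70 regions per 10 kb. Together they covered 36.0% of its bases. GATA5 came next with 5 regions, 4.0 per 10 kb and 20.8% of bases. GATA2 had 1 region (0.726 per 10 kb), GATA6 2 (0.607) and GATA4 4 (0.482), and these covered 17.1%, 5.31% and 1.25% of bases. Thus the wide promoter region of GATA2 was the only region of that gene called in both replicates, and replicate 2 alone had a further weak peak of 3.98. Among 11195 protein-coding genes of 10 to 100 kb, the median was 1.23 regions per 10 kb and 5.96% of bases. GATA3 stood at percentile 98.6 by density and 95.6 by bases, and GATA5 at 93.0 and 87.7. In single replicates GATA3 had 18 and 22 peaks in the gene body and GATA5 6 and 6.

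Most GATA3 gene-body regions were weak. In 12 of 17, the fold enrichment was below the median of all regions (9.66 in replicate 1 and 9.95 in replicate 2) in both replicates, against 45.7% of all regions. The median of the 17 was 6.67 in replicate 1 and 6.85 in replicate 2. Accordingly, the lead of GATA3 was lost among strong peaks. With the 50000 strongest peaks of each replicate alone, GATA3 kept 0.335 regions per 10 kb of gene body, and GATA2 had 0.726, whereas with peaks of a −log10 q of at least 10 GATA3 still led with 3.69 against 2.40 for GATA5. These settings were added after the data had been seen.

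**Figure D3:**
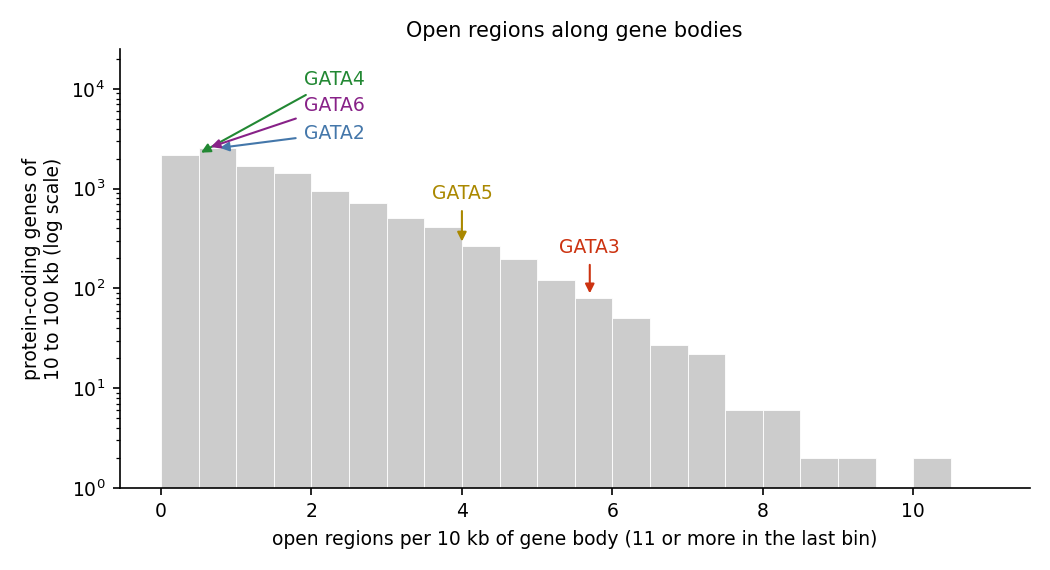
Regions open in both replicates per 10 kb of gene body for 11195 protein-coding genes of 10 to 100 kb, as a histogram with a logarithmic vertical axis; arrows mark the GATA genes. GATA3 at 5.70 and GATA5 at 4.0 lie in the sparse right part, and GATA2, GATA6 and GATA4 lie below 1.

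Along the GATA3 gene, openness was concentrated downstream of the strong start. Of the gene-body regions, 9 lay in introns and 3 overlapped exons away from TSSs. The intron regions ranged from a mean of 4.30 to 13.3, the strongest being chr10:8071991-8072984 with 14.0 and 12.6. The region at the 3′ end of the gene (chr10:8074538-8076605) was stronger in replicate 1, at 29.2, than in replicate 2, at 19.7, and extended past the annotated end. Between the 5′ end and the strong start lay a region of 1737 bp (chr10:8049385-8051121) with 13.1 and 13.7, at the start of ENSG00000232638. RefSeq places a further GATA3 promoter inside it, at chr10:8049604-8049903. Another, at chr10:8050986-8051285, ran past its end, with 136 of 300 bases covered in each replicate. A RefSeq promoter farther along, at chr10:8060207-8060506, overlapped an intron region with 8.74 and 9.07. Counted from the most 5′ TSS in steps of 10 kb, the 10 to 20 kb step held 8 regions and the 20 to 30 kb step 5, and no other step of the window held more than 4. By comparison, the longest stretch without a region in the GATA6 window, 40160 bp, ran from the last region inside the gene (chr18:22173070-22213229) past the end of the gene. In the GATA3 window the longest such stretch was 55022 bp (chr10:7957434-8012455), upstream of the gene.

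**Figure D4:**
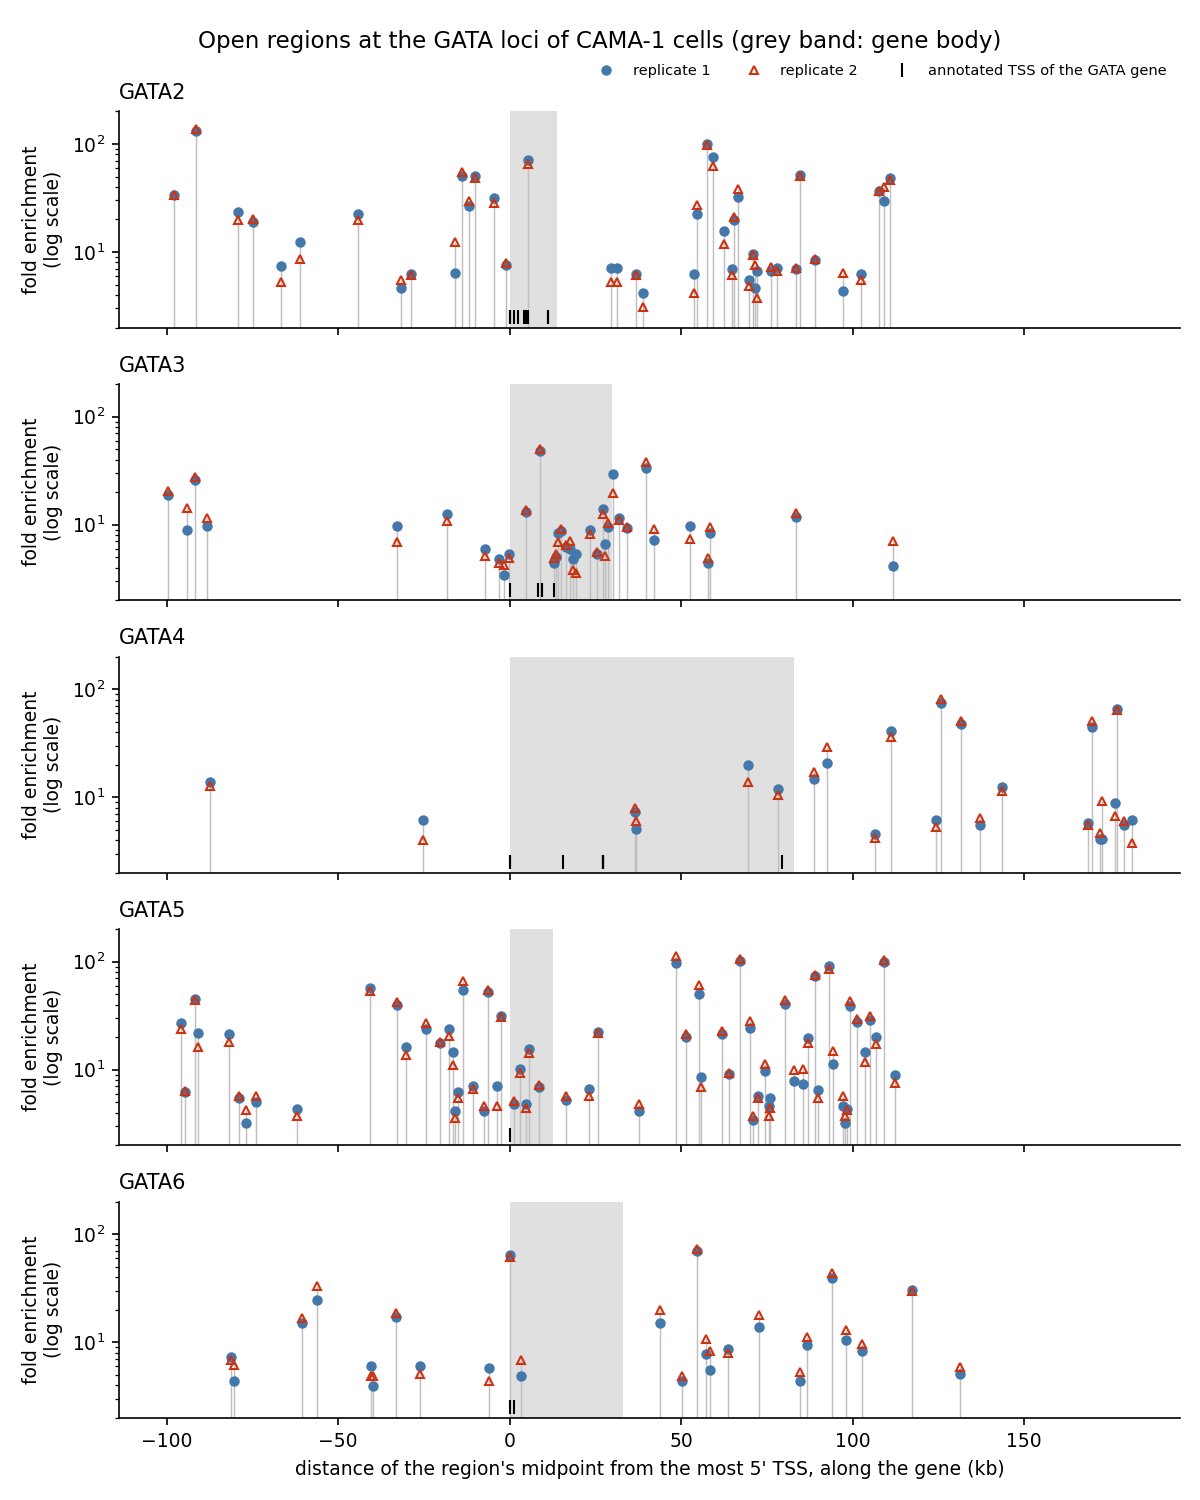
Fold enrichment (logarithmic axis) of each region open in both replicates against the distance of its midpoint from the most 5′ TSS of each GATA gene, along the direction of the gene; circles are replicate 1, triangles replicate 2, the grey band is the gene body and black ticks are its TSSs. The GATA3 gene body is filled with regions mostly below 10, the GATA6 gene body holds 1 weak region after its promoter, and the GATA2 window holds its strongest regions far from the gene.

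Outside the TSSs, the 5 strongest regions of the GATA3 window were modest. The strongest, 39829 bp downstream of the most 5′ TSS and past the end of the gene (chr10:8084643-8085772), reached 33.1 in replicate 1 and 38.0 in replicate 2. Its values lay at percentiles 85.9 and 88.4 of all peaks of the respective replicates, and no annotated gene overlapped the region. The next were chr10:7953328-7954031 with 25.8 and 27.6, the 3′ end region described above, and chr10:7945042-7946168 with 18.6 and 20.3. The first and the last of these were inside TAF3, a subunit of the general transcription factor TFIID that lies upstream of GATA3. The intron region with 14.0 and 12.6 was the fifth.

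The central 300 bases of the strongest region, chr10:8085058-8085357, are shown on the plus strand because it was the only one of these 5 whose centre held a GATA motif. The match is in capitals and reads as a motif on the minus strand.
GATA3 downstream region: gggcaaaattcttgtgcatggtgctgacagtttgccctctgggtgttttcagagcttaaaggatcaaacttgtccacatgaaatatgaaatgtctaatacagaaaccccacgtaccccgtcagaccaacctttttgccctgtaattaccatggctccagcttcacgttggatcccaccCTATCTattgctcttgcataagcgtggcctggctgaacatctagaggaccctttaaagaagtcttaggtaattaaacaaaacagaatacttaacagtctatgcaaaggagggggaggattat

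Away from TSSs, the highest mean fold enrichment of a region was 136 for GATA2, 88.6 for GATA5, 71.0 for GATA6, 47.5 for GATA4 and 35.6 for GATA3. In the GATA2 window chr3:128584242-128584849, 91344 bp upstream of the most 5′ TSS, reached 132 and 139, and a pair of regions downstream (chr3:128434784-128436608 and chr3:128433336-128434357) reached 101 and 97.1, and 75.0 and 61.9. Nearer the gene, regions 13888 and 10138 bp upstream had 50.6 and 55.1, and 50.9 and 48.9. In the GATA6 window chr18:22223659-22224582, 54531 bp downstream of its most 5′ TSS and inside the non-coding gene ENSG00000264825, reached 69.5 and 72.5, above the GATA6 promoter itself. With TSS regions included, those of at least 50 in both replicates numbered 6 for GATA2, 9 for GATA5, 2 for GATA4, 2 for GATA6 and 0 for GATA3, whose promoter just missed this limit with 48.3 and 50.0. Over the whole series 8.58% of regions were this strong. Away from TSSs they numbered 5, 4, 0, 1 and 0 in the same order. Summed fold enrichment per 100 kb was 169 for GATA3, close to GATA6 at 177 and GATA4 at 156, and far below GATA2 at 486 and GATA5 at 692.

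Replicates differed mainly in weak peaks. Across the 5 windows, regions called in a single replicate had fold enrichments between 2.99 and 6.41. For GATA3 there were 5 in replicate 1 and 7 in replicate 2, and for GATA5 8 and 16. In the regions open in both, the ratio of replicate 2 to replicate 1 had a median of 1.04 for GATA3 (0.669 to 1.71), 0.965 for GATA2, 0.981 for GATA4, 1.03 for GATA5 and 1.17 for GATA6. Over all regions the median was 1.02.

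GATA motifs were then counted in the central 300 bases of each region. At the GATA3 locus 9 of 35 regions held 1 or more (25.7%, 95% Wilson interval 14.2 to 42.1), against 74126 of 215195 regions, or 34.4%, in the whole series. GATA2 had 8 of 42 (19.0%), GATA6 5 of 25 (20.0%), GATA5 6 of 64 (9.38%, 4.37 to 19.0) and GATA4 2 of 23 (8.70%). The interval of GATA3 included the share of all regions and those of GATA2 and GATA6. Such an interval treats regions as independent. Regions of the same locus share their libraries and are not replicates, so it does not test a difference between loci. More than 3 kb from any TSS, 8 of 25 GATA3 regions (32.0%) and 38.0% of all regions had a match. Of the GATA3 gene-body regions with a match, all 3 were intronic and weak, with means of 6.31, 4.42 and 5.41. A forkhead motif (TGTTTAC or TGTTTGC) was found in 4 of 35 GATA3 regions (11.4%) and 15.0% of all regions, and the AP-1 motif in 7 (20.0%) and 13.5%. No GATA3 region held an estrogen response element, which occurred in 0.0902% of all regions. Base composition differed between loci. The median GC content of the regions was 50.4% for GATA3, 49.3% for GATA6, 53.6% for GATA4, 57.8% for GATA2 and 63.0% for GATA5, and its part in the motif shares was not tested.

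Finally, genes related to the GATA factors were examined, and 14 of 17 had a TSS peak in both replicates, close to the 79.6% of all protein-coding genes, so the count says nothing particular about this list. Among other genes with a GATA-type zinc finger, TRPS1, a repressor that binds GATA sites and is expressed in luminal breast cells, had 73.6 and 84.9, above GATA3 in both replicates. GATA1, the erythroid member of the family, and ZGLP1 had no TSS peak. Of 6 cofactors, 5 had a TSS peak. The FOG proteins that bind GATA fingers, ZFPM1 and ZFPM2, had 40.7 and 37.1, and 53.4 and 48.9. The adaptor LDB1 had 67.4 and 63.2, and its LIM-only partners were weaker, with 17.5 and 16.6 for LMO4 and 7.82 and 9.29 for LMO2. TAL1, a partner of GATA factors in blood, had none. All 8 genes of the GATAD, MTA, CHD4 and RERE group, mostly of the repressive NuRD complex, had one, from MTA2 with 52.5 and 54.0 to GATAD2B with 207 and 208.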

How the data were processed

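ATAC-seq peaks of 2 CAMA-1 replicates were used as deposited, one list per replicate. Per the submitters' processing notes, reads were trimmed with Trim Galore 0.6.5, aligned to hg38 with Bowtie2 2.3.5.1 and peaks called with MACS2 2.2.6. The settings, the handling of duplicates and Tn5 offsets are not given in the sources used here. The authors deposited for each peak a score, a fold enrichment (ratio to background), a −log10 p-value and a −log10 q-value. Fold enrichment was used throughout, and the q-value only in alternatives. The deposited fold enrichments were whole steps of 0.230 and 0.221 in 100% of peaks (tolerance 0.01 steps), read as (height + 1) / (background + 1), which gave peak heights. The peak lists hold no library depth, and totals stated by the study were not used here, so precision was taken from peak heights. A region's value in a replicate is its highest peak there. Genes and TSSs came from GENCODE release 44, promoters from RefSeq on hg38. Motifs were searched on both strands in 300 bases around midpoints. Functions were tested on simulated data. Other settings tried were a minimum −log10 q of 10, only the 50000 strongest peaks, a reciprocal overlap of 50%, other windows, TSS distances and measures, and each replicate left out. Genes named were the 5 members, up to 4 others per window with a region at their TSS, fixed lists of GATA-related genes and cell type markers, and the 5 strongest GATA3 regions away from TSSs. TAF3 was named as the gene that overlapped some of these regions. Other regions, and ENSG names, were chosen after their values were seen. One gene of the marker lists is not reported here. The members and lists were chosen with earlier results of these data known. Python 3.11.15, numpy 2.4.6, scipy 1.17.1, pandas 2.3.3, pysam 0.24.0 and matplotlib 3.10.9 were used.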

Additional observations from a re-analysis of the deposited data

How the results depend on the processing

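The strongest TSS peak of GATA3 was below that of GATA2 under all alternatives run for their ratio (main 0.729), which was 0.663 by −log10 q, 0.809 after division by the median of TSS peaks within 5 Mb (added after seeing the data) and ranged from 0.686 to 0.771 with a replicate left out. The number of GATA genes with a TSS peak was 3 with either replicate left out and 5 with a limit of 3 kb. Limited to the 50000 strongest peaks, the windows held 14 regions at GATA2, 3 at GATA3, 5 at GATA4, 17 at GATA5 and 5 at GATA6. In the gene body alone they held 1, 17, 4, 5 and 2. Within 50 kb there were 19 at GATA2, 29 at GATA3, 12 at GATA4, 29 at GATA5 and 14 at GATA6. The counts within 200 kb were 87, 45, 39, 120 and 48 in the same order. GATA6 kept 16 regions at a minimum −log10 q of 10, and GATA4 kept 14 without those at TSSs of other genes. With a replicate left out the counts were 46 to 54 for GATA2, 42 to 44 for GATA3, 26 to 28 for GATA4, 75 to 84 for GATA5 and 30 for GATA6. The density of GATA3 relative to GATA5, the highest paralog (0.506), was 0.453 at a minimum −log10 q of 10, 0.163 with the strongest peaks, 0.867 within 50 kb, 0.360 within 200 kb, 0.410 by bases, 0.245 by summed fold enrichment, 0.629 without TSSs of other genes and 0.484 to 0.518 with a replicate left out. The percentile of GATA3 (64.9) was 81.6 within 50 kb, 46.6 within 200 kb, 58.1 at a minimum −log10 q of 10, 26.0 with the strongest peaks and 66.9 to 67.7 with a replicate left out. The share of GATA3 regions with a GATA motif (25.7%) was 11.4% within 50 bp of the midpoint, where all regions had 12.4%.

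Chosen after seeing the data, alternatives for the gene body gave a ratio of GATA3 to the highest paralog (main 1.43) of 1.74 by bases, 1.26 to 1.54 with a replicate left out, and a reversed 0.462 with the strongest peaks. The percentile of the GATA3 gene body (98.6) was 96.7 at a minimum −log10 q of 10, 46.0 with the strongest peaks and 96.7 to 98.8 with a replicate left out. The cause of these shifts was not tested. Of 89 alternatives over 12 results, 47 moved a value by less than its replicate spread or a count by less than 1.5 times, 41 moved it further and 1 reversed it. No paired analysis was possible because the labels give 1 condition, with no groups to pair by replicate number, and ratios between loci were taken within each replicate. Weak regions rest on few reads, and the lists cannot show opening under the caller's threshold.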
